A study of Mus musculus with 4 samples.

Results

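The genes described here encode the machinery that moves and shapes mitochondria: the transport adaptors Trak1 and Trak2, the Miro GTPases Rhot1 and Rhot2, the fusion GTPases Mfn1, Mfn2 and Opa1, the fission GTPase Dnm1l, and the fission receptors Fis1 and Mff. They were taken as a named list of 10 genes, and every probe set whose annotation gave exactly 1 of these symbols was used. This gave 10 of the 18193 genes named this way, on 28 of the 45101 probe sets of the array, and no member was named on a probe set shared between several symbols. RNA came from NIH/3T3 cells, an established mouse fibroblast line. Cells were starved of serum overnight and spread for 2 h on a porous membrane coated with fibronectin on both faces. They were then given lysophosphatidic acid (LPA), a phospholipid that stimulates migration, at 150 ng/ml in the chamber below for 1 h. The pseudopodia group held 2 arrays of RNA from the protrusions scraped off the lower face, and the cell body group 2 arrays of RNA from the upper face. Both groups received LPA and the same formaldehyde fixation, and unstimulated cells were not analysed here. The question was which RNAs are relatively enriched in the protrusions.

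Mitochondria travel along microtubules on kinesin and dynein motors. Miro GTPases in the outer membrane hold Trak adaptors, and these bind the motors. Mitofusins (Mfn1 and Mfn2) join outer membranes and Opa1 joins inner membranes, whereas Dnm1l, a dynamin-like GTPase also known as Drp1, is recruited from the cytosol by receptors such as Mff and Fis1 and constricts the organelle until it divides. In migrating fibroblasts mitochondria can be carried towards the leading edge, and the balance of fusion and fission affects how easily they move.

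All values are MAS5 signals as deposited, which the authors had scaled to a common mean on each array, so a difference compares shares of the signal in each fraction, not amounts per cell. Fewer cells with protrusions and less RNA per protrusion cannot be told apart. The median signal over all probe sets was 31.0 and 33.3 on the pseudopodia arrays, against 29.8 and 33.2 on the cell body arrays, and the number of arrays limits the precision. A difference is log2 of pseudopodia over cell body, with the SE of the limma fit and n = 2 arrays per group throughout, and its p is adjusted over the 22519 probe sets whose mean reached the median of all. The 4 listed RNAs that are kept in the nucleus summed to 1214.3 and 2546.3 in pseudopodia, against 5475.1 and 6379.8 in cell bodies; Neat1 and Malat1 were lower in both pseudopodia arrays, Meg3 overlapped and 1 was below the filter. Of 9 fibroblast markers 7 reached the filter, all but Thy1 and Postn, and the signals of all 9 summed to 113996.5 and 118275.5 in pseudopodia, against 119760.3 and 123381.1 in cell bodies. Of these 7, Col1a1, Col1a2, Col3a1, Pdgfrb and Fn1 were lower in the pseudopodia array of each pair, and Vim and S100a4 higher. None of the 5 neuron or 3 measured adipocyte markers reached it, whereas 1 of 5 measured blood, 3 of 6 epithelial and 2 of 5 muscle markers did. The blood markers summed to 268.2 and 231.5 in pseudopodia, against 360.8 and 313.2 in cell bodies, of which Lyz2 gave 205.5 and 161.2, against 309.0 and 238.3. The sums of the epithelial, muscle, neuron and adipocyte markers overlapped between fractions. The 3′ to 5′ signal ratio of beta-actin, a sign of RNA integrity, was 1.77 and 3.41 in pseudopodia, against 1.55 and 1.89 in cell bodies. That of Gapdh was 0.960 and 1.01 in pseudopodia, against 0.919 and 0.946 in cell bodies. The part of these shifts in the results below was not tested.

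On the brightest probe set of each gene, Trak2 was higher in pseudopodia by 3.93-fold and Mff by 2.77-fold, and no member passed as lower. The Mff value comes from 1456736_x_at, a probe set that may also match other transcripts. On the next brightest Mff probe set, 1451572_a_at, the groups overlapped and the difference of 0.15 ± 0.25 did not pass (adjusted p = 0.770). All 10 genes had at least 1 probe set above the filter. Of the 20 member probe sets that reached it, 2 passed an adjusted p of 0.05 as higher (10.0%), 0 passed as lower and 18 did not pass. Over all probe sets tested, 4.4% passed, 1.08% as higher and 3.32% as lower. At an unadjusted p of 0.05 the member counts in the limma fit were 4 higher and 0 lower, where 8.66% of all probe sets were higher and 13.3% lower. With 1 probe set per gene, 2 of the 10 genes passed as higher and 0 as lower, where 1.82% and 3.44% of 10962 genes did. The difference was positive in 7 of the 10 genes, as in 51.2% of all genes. The median difference of the 10 genes was 0.33, beside 0.01 for all genes. The list was drawn up with the Trak2 result known, so its count is a description.

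**Figure D1:**
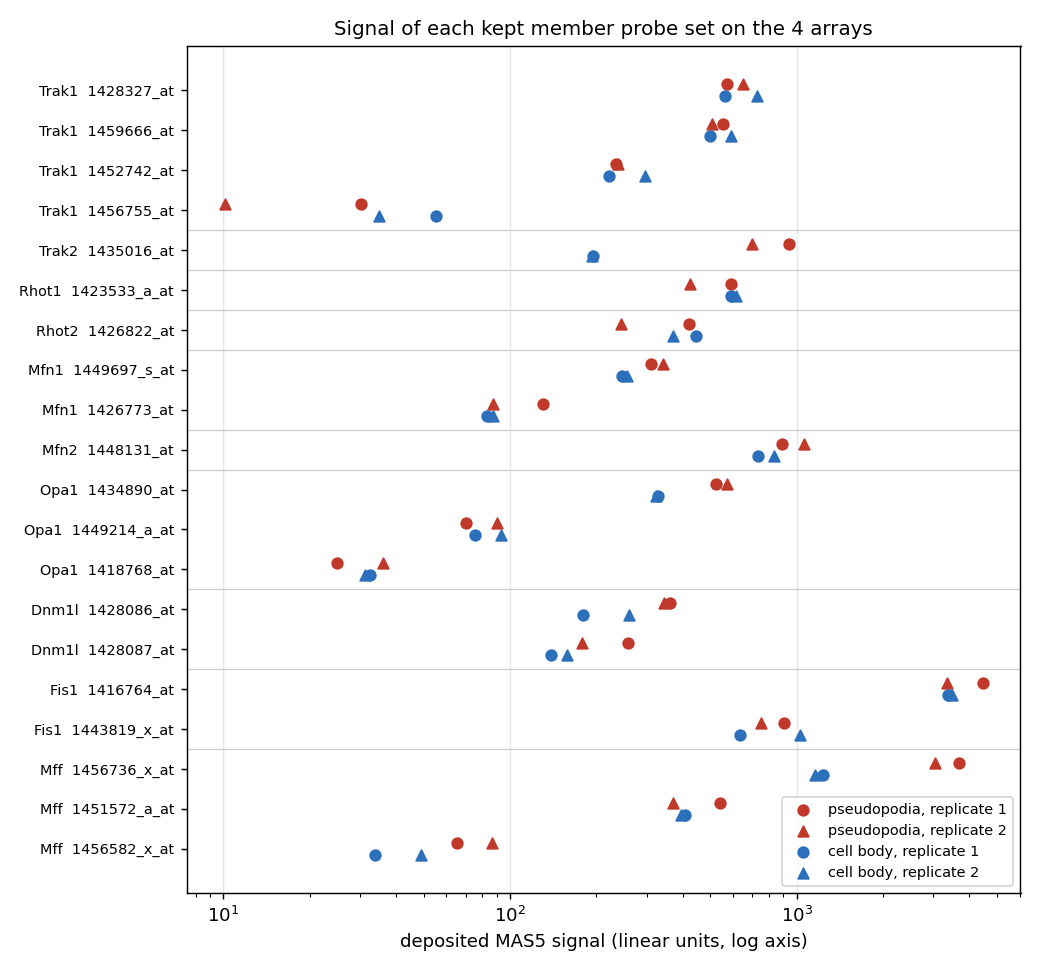
Deposited MAS5 signal (log axis) of the 20 member probe sets above the filter, 1 row each, with pseudopodia in red above cell bodies in blue, circles for replicate 1 and triangles for replicate 2. The red points of Trak2 (939.6 and 696.8, against 194.6 and 193.0) and of the first Mff probe set (3679.5 and 3031.1, against 1235.5 and 1155.7) stand clear of the blue ones, whereas those of Trak1, Rhot1, Rhot2 and Fis1 mostly overlap them.

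Among the transport adaptors, Trak2 was higher in pseudopodia and Trak1 did not pass in either direction. Trak2, which links mitochondria to motors and acts with Miro, had signals of 939.6 and 696.8 in pseudopodia, against 194.6 and 193.0 in cell bodies, on probe set 1435016_at. Both pseudopodia arrays lay above both cell body arrays, by a signal ratio of 4.83 in the replicate 1 pair and 3.61 in the replicate 2 pair. The difference was 1.98 ± 0.24 (adjusted p = 0.0184; 95% interval 1.43 to 2.52), which ranked at position 11 from the highest among the 22519 probe sets. Trak2 had a second probe set, 1429607_at, that stayed below the filter, with 13.9 and 8.7 in pseudopodia, against 25.8 and 23.3 in cell bodies. These dim values run in the opposite direction and were given no call.

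Trak1, the adaptor paralog that binds both kinesin and dynein, stood near equal in the fractions. Its probe set 1428327_at had signals of 570.6 and 651.0 in pseudopodia, against 562.2 and 725.8 in cell bodies, and the groups overlapped. The difference was -0.07 ± 0.22 (adjusted p = 0.898; 95% interval -0.59 to 0.46). Probe sets 1459666_at and 1452742_at of Trak1 gave -0.03 ± 0.21 and -0.11 ± 0.24, also with overlapping groups, and after quantile normalization the sign of these 3 differences turned positive. The dimmest of its 4 probe sets, 1456755_at, had 30.3 and 10.1 in pseudopodia, against 55.3 and 34.9 in cell bodies. Here both pseudopodia arrays lay below both cell body arrays, a pattern seen in 28.2% of all probe sets tested, and the difference of -0.79 ± 0.45 did not pass (adjusted p = 0.345).

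Set side by side within each pair of arrays, the difference of Trak2 exceeded that of Trak1 by 2.16 in replicate 1 and by 1.92 in replicate 2 on the log2 scale. This contrast was not tested. The corresponding contrasts within the other paralog pairs were small, at 0.09 and 0.05 for Rhot1 over Rhot2 and at 0.05 and 0.05 for Mfn1 over Mfn2.

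The Miro GTPases did not pass in either direction. Rhot1, a calcium-binding GTPase that anchors the Trak adaptors in the outer membrane, had signals of 592.8 and 425.0 in pseudopodia, against 590.4 and 615.8 in cell bodies. Rhot2, its paralog, had 420.2 and 244.4 in pseudopodia, against 446.3 and 369.1 in cell bodies. In both genes the groups overlapped, since pseudopodia replicate 1 lay within the range of the cell bodies and only replicate 2 lay below it. The differences were -0.26 ± 0.24 for Rhot1 (adjusted p = 0.574; 95% interval -0.80 to 0.29) and -0.32 ± 0.29 for Rhot2 (adjusted p = 0.567; 95% interval -1.01 to 0.36). The remaining 2 probe sets of Rhot1 were below the filter, and the groups overlapped there too.

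Among the fission genes, Mff, a tail-anchored receptor that recruits Dnm1l to the outer membrane, gave a clear difference on 1 probe set and not on the others. Probe set 1456736_x_at had signals of 3679.5 and 3031.1 in pseudopodia, against 1235.5 and 1155.7 in cell bodies. Both pseudopodia arrays stood above both cell body arrays, by ratios of 2.98 and 2.62 in the replicate pairs, and the difference of 1.47 ± 0.19 passed (adjusted p = 0.0193; 95% interval 1.03 to 1.91). It ranked at position 83 from the highest. Probe set 1451572_a_at had 540.7 and 371.4 in pseudopodia, against 407.8 and 396.5 in cell bodies, with overlapping groups and a difference of 0.15 ± 0.25 (adjusted p = 0.770). The dimmer probe set 1456582_x_at had 65.2 and 86.7 in pseudopodia, against 33.7 and 48.9 in cell bodies, and its difference of 0.69 ± 0.33 did not pass (adjusted p = 0.274) although the groups stood apart. Below the filter, 1457371_at had 0.7 and 26.0 in pseudopodia, against 12.2 and 13.5 in cell bodies, and the groups overlapped. The x in a probe set name marks probes that may also match other transcripts, so the signal of 1456736_x_at may not come from Mff alone. The probe set with an a suffix was designed for several transcripts of 1 gene, and which Mff transcripts each probe set detects was not analysed here. Averaged over its 3 probe sets above the filter, Mff passed at 0.77 ± 0.18 (adjusted p = 0.0490 over genes). This mean includes 1456736_x_at and 1456582_x_at, so it cannot show whether their signal comes from Mff alone. With the probe sets that carry a suffix left out, no probe set of Mff was left to test and Trak2 was the 1 member that passed.

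Dnm1l, the GTPase that divides mitochondria, had signals of 362.6 and 345.9 in pseudopodia, against 180.5 and 260.1 in cell bodies, on probe set 1428086_at. Its second probe set above the filter, 1428087_at, had 257.9 and 179.0 in pseudopodia, against 139.1 and 158.6 in cell bodies. On both, the pseudopodia arrays lay above the cell body arrays, as in 24.8% of all probe sets tested, with a wider gap in replicate 1 (0.95 and 0.82) than in replicate 2 (0.39 and 0.16). The differences of 0.67 ± 0.25 and 0.49 ± 0.26 did not pass (adjusted p = 0.174 and 0.326). With the replicate number as a block, 1428086_at did not pass over all probe sets (adjusted p = 0.0548). By gene it passed in that fit (adjusted p = 0.0295 over genes), which called 8.74% of all genes as higher. Its 2 dim probe sets were below the filter and given no call. Of these, 1428008_at had 10.8 and 20.8 in pseudopodia, against 0.3 and 0.4 in cell bodies. The groups overlapped on 1452638_s_at, with 0.8 and 9.8 in pseudopodia, against 3.5 and 1.2 in cell bodies.

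Fis1, a tail-anchored outer membrane protein also linked to fission, had signals of 4456.4 and 3357.8 in pseudopodia, against 3369.7 and 3474.9 in cell bodies, on probe set 1416764_at. On 1443819_x_at it had 900.7 and 748.5 in pseudopodia, against 636.8 and 1024.4 in cell bodies. The groups overlapped on both, with the replicate 1 pair positive (0.40 and 0.49) and the replicate 2 pair negative (-0.05 and -0.44). The differences were 0.18 ± 0.19 and 0.02 ± 0.27 (adjusted p = 0.639 and 0.973), and the 95% interval of the first, -0.27 to 0.62, leaves out a rise as large as that of 1456736_x_at.

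Among the fusion genes, Opa1, the GTPase of the inner membrane, came nearest to the threshold. Its probe set 1434890_at had signals of 525.3 and 572.6 in pseudopodia, against 328.0 and 323.1 in cell bodies. Both pseudopodia arrays were higher, by ratios of 1.60 and 1.77, and the difference of 0.72 ± 0.21 did not pass (adjusted p = 0.0957; 95% interval 0.24 to 1.21). With the replicate number as a block it passed (adjusted p = 0.0206), in a fit that called 6.84% of all probe sets as higher and 11.3% as lower. The other 2 probe sets of Opa1 did not share this difference. Probe set 1449214_a_at had 70.4 and 90.3 in pseudopodia, against 75.5 and 93.2 in cell bodies, and 1418768_at had 25.0 and 36.0, against 32.4 and 31.2. Their differences were -0.06 ± 0.29 and -0.05 ± 0.38, with overlapping groups.

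The mitofusins stood slightly higher in pseudopodia, without passing. Mfn1 had signals of 309.9 and 341.2 in pseudopodia, against 245.1 and 256.5 in cell bodies, on probe set 1449697_s_at, and Mfn2 had 889.6 and 1065.2, against 734.3 and 836.7, on 1448131_at. In both genes each pseudopodia array lay above both cell body arrays, but the differences were small, at 0.36 ± 0.22 for Mfn1 and 0.31 ± 0.21 for Mfn2 (adjusted p = 0.389 and 0.434). Another probe set of Mfn1, 1426773_at, had 129.9 and 87.3 in pseudopodia, against 83.3 and 87.4 in cell bodies, with overlapping groups and a difference of 0.28 ± 0.29. A dim probe set of Mfn2 below the filter, 1451900_at, had 24.9 and 24.8 in pseudopodia, against 2.8 and 1.6 in cell bodies, and its brighter probe set showed no gap of that size. The dim probe set of Mfn1, 1419997_at, had 20.8 and 5.6 in pseudopodia, against 4.7 and 36.2 in cell bodies, with overlapping groups.

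In all, 8 of the 20 probe sets above the filter had both pseudopodia arrays above both cell body arrays (24.8% of all probe sets tested did) and 1 had both below (28.2%). The other 11 overlapped. The difference was positive in 12 of the 20, beside 47.7% of all probe sets. By size, 3 of them (those of Trak2, Mff and Opa1 named above) were 1.5-fold or more higher in every one of the 4 pairs of arrays and 0 were that much lower, where 2.79% of all probe sets were so much higher and 7.86% so much lower. Of the 8 probe sets below the filter, whose signals lay between 0.3 and 44.7, 2 had both pseudopodia arrays higher, 1 had both lower and 5 overlapped, where 21.2% of all probe sets below the filter had both higher and 14% both lower. Each of the 6 genes with several probe sets above the filter is thus described by more than 1 value, and these spread most in Mff (0.15 to 1.47), Opa1 (-0.06 to 0.72) and Trak1 (-0.79 to -0.03).

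**Figure D2:**
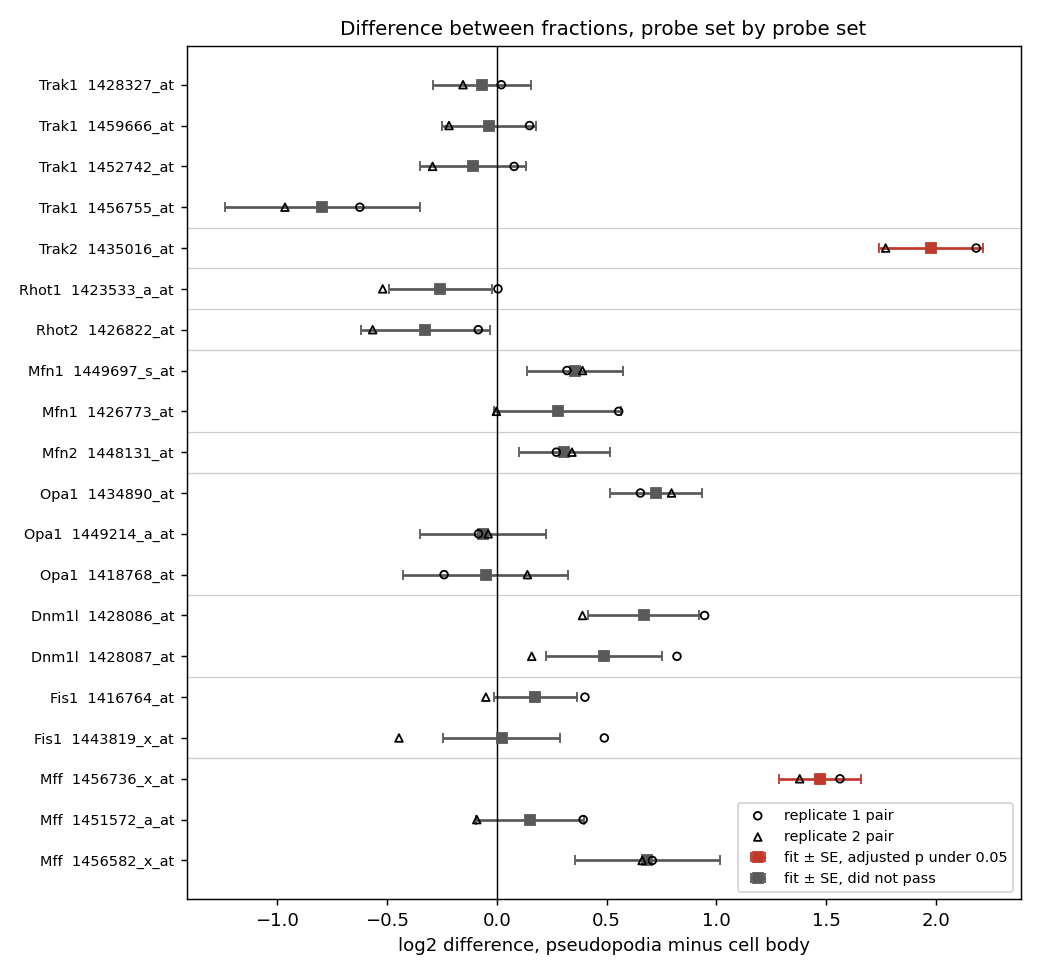
Log2 difference between pseudopodia and cell bodies for the same 20 probe sets, as squares with the SE of the fit, and for the replicate 1 pair (open circles) and replicate 2 pair (open triangles) alone. The probe sets 1435016_at of Trak2 and 1456736_x_at of Mff, in red, passed the threshold; the other 18, in grey, did not.

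The order of the 10 genes by their brightest probe set was Trak2, Mff, Opa1, Dnm1l, Mfn1, Mfn2, Fis1, Trak1, Rhot1 and Rhot2. Trak2 lay above Mff by 0.62 in the replicate 1 pair and 0.39 in the replicate 2 pair, and Mff above Opa1 by 0.91 and 0.58. Opa1 and Dnm1l changed places between the pairs, as did Mfn2 and Fis1, and Dnm1l and Mfn1 met at 0.39 in the replicate 2 pair, so that these neighbours do not differ beyond that spread. Mfn1 over Mfn2 (0.05 and 0.05), Fis1 over Trak1 (0.38 and 0.10), Trak1 over Rhot1 (0.02 and 0.37) and Rhot1 over Rhot2 (0.09 and 0.05) kept their order in both pairs, with mean gaps of 0.24 or less beside SEs of 0.19 to 0.29. No gap between neighbours was tested. After scaling on the hybridization controls, which lowered the median of all probe sets to -0.34, Trak2 and Mff still passed, at 1.64 and 1.12, and the differences of Mfn2 and Fis1 turned negative.

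**Figure D3:**
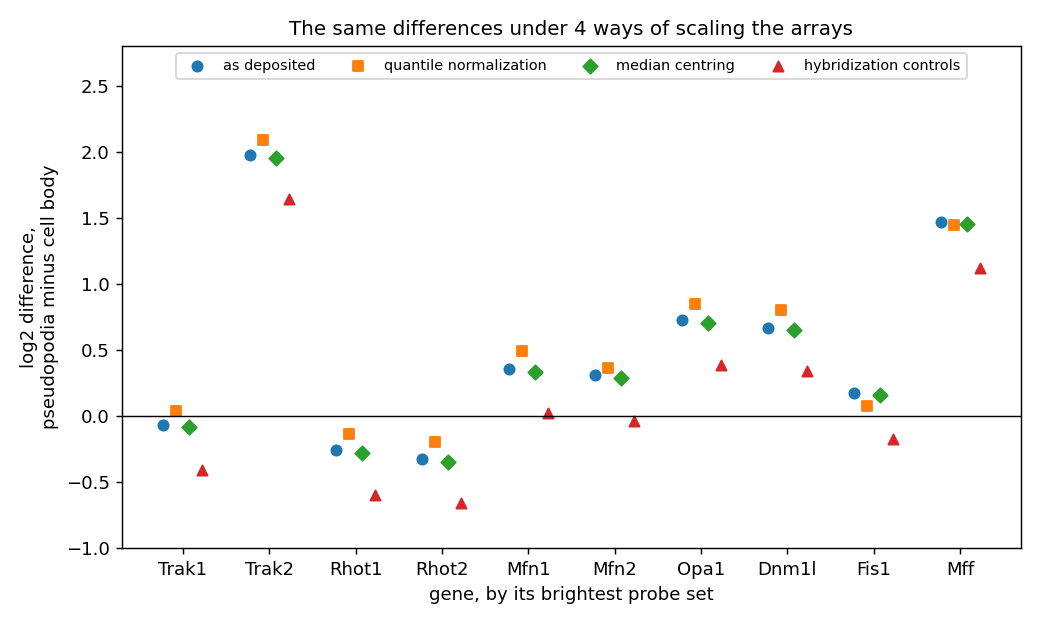
Log2 difference of each gene's brightest probe set with the arrays scaled as deposited, by quantiles, by the median and on hybridization controls. Trak2 (1.98, 2.09, 1.96 and 1.64) and Mff (1.47, 1.44, 1.45 and 1.12) stay above the other genes, and the remaining 8 genes lie below 1 under every scaling.

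The probe sets whose values over the 4 arrays lay nearest to those of Trak2, by the distance of log2 values around their own mean, were 1 each of Sh3pxd2a, Nbeal1, Cenpb, Kank2 and Ddr2, at distances of 0.13, 0.21, 0.26, 0.27 and 0.29. None of these was on the lists used here. For Nbeal1 and Ddr2 it was not the brightest probe set of the gene, and the brightest differed by 1.55 and 1.54, beside 2.18 and 1.89 on the one that matched. Sh3pxd2a, a podosome scaffold, had signals of 7143.4 and 5142.2 in pseudopodia, against 1608.1 and 1689.9 in cell bodies. Cenpb, a centromere protein, had 3940.1 and 3519.2 in pseudopodia, against 1097.0 and 1012.9 in cell bodies. With 4 arrays and 22519 probe sets this likeness is a description.

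Among related genes of mitochondrial transport and shape, Kif5b and Pink1 passed as higher in pseudopodia. Of 62 related genes listed, 58 had a probe set with 1 symbol and 51 reached the filter. By their brightest probe sets 2 passed as higher, 0 passed as lower and 49 did not pass, where 1.82% of all genes passed as higher and 3.44% as lower. At an unadjusted p of 0.05 the limma counts were 6 higher and 1 lower, where 10.6% and 12.1% of all genes were. With the replicate block 6 were higher and 1 lower, in a fit that called 8.74% and 11% of all genes. The median difference of the 51 genes was 0.05, beside 0.01 for all genes. Pink1 lay close to the threshold and did not pass after median centring, on hybridization controls, with the smaller pseudocount, without the filter, without the variance trend, with the mean over its probe sets (adjusted p = 0.152 over genes), without pseudopodia replicate 2 (adjusted p = 0.0553 over genes) or without either cell body array.

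Of 16 measured genes of motors and microtubule transport, Kif5b alone passed. Kif5b, the kinesin heavy chain to which Trak adaptors bind, had signals of 703.5 and 678.4 in pseudopodia, against 250.4 and 266.1 in cell bodies, and differed by 1.37 ± 0.20 (adjusted p = 0.0186 over genes). Another of its probe sets passed as well, at 1.34 (adjusted p = 0.0440), and the remaining ones, at 0.43, 0.15 and 0.85, did not. Averaged over its 5 probe sets the gene stood at 0.83 and did not pass (adjusted p = 0.0728 over genes). On their brightest probe sets the kinesin light chains Klc1 and Klc4 lay lower in both pseudopodia arrays without passing, at -0.27 ± 0.19 and -0.25 ± 0.19. Of all probe sets tested, 28.2% had both pseudopodia arrays lower. Their dimmer probe sets did not pass either and differed in sign, at 0.16 and -0.97 for Klc1 and 0.10 for Klc4. Next by test came Armcx2, an armadillo protein of the outer membrane, Mtx1, a metaxin of the outer membrane, and Ranbp2, a nucleoporin that binds kinesin, at 0.37 ± 0.17, 0.46 ± 0.24 and 0.38 ± 0.21. The dimmer probe sets of these genes did not all share the direction or size. They stood at -0.39 and 0.29 for Armcx2, 0.09 for Mtx1, and 0.33 and -0.40 for Ranbp2. The median of the 16 genes was 0.04.

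Of 15 measured regulators of fission none passed in either direction (15 not past, median 0.09). The 3 with the largest statistic were Marchf5, a ubiquitin ligase of the outer membrane, at 0.44 ± 0.16 (adjusted p = 0.155 over genes), Mtfr1, a fission regulator, at 0.42 ± 0.20, and Mief2, an adaptor that recruits Dnm1l, at -0.28 ± 0.20. Marchf5 had signals of 4646.6 and 4810.8 in pseudopodia, against 3295.7 and 3658.7 in cell bodies. It passed with the replicate block (adjusted p = 0.0345 over genes). Mief1, the paralog of Mief2, stood at -0.26 ± 0.23, so that of the Dnm1l receptors and adaptors measured (Mff, Fis1, Mief1 and Mief2) Mff was the 1 that passed. Mff passed on 1456736_x_at, whose signal may not come from Mff alone, and its probe set 1451572_a_at stood at 0.15 ± 0.25.

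Of 16 measured genes of fusion and inner membrane shape none passed (median 0.10). Spg7, a subunit of the inner membrane m-AAA protease, had signals of 312.3 and 345.5 in pseudopodia, against 558.1 and 567.8 in cell bodies, and lay at -0.75 ± 0.20 (adjusted p = 0.0665 over genes). It passed as lower on hybridization controls, with the replicate block and without pseudopodia replicate 2. Micos10, a subunit of the complex that forms crista junctions, had 5137.6 and 6466.9 in pseudopodia, against 3161.4 and 4111.9 in cell bodies. The difference of 0.67 ± 0.20 passed with the replicate block (adjusted p = 0.00212 over genes). Its dimmer probe sets stood at 0.83 ± 0.23 and -0.37 ± 0.41 and did not pass without the block. The x probe sets that stand for Micos10, and for Phb2 and Chchd6 below, may also match other transcripts. Phb2, a prohibitin scaffold of the inner membrane, stood at 0.54 ± 0.17 (adjusted p = 0.00901 over genes with the block), with 0.56 and 0.29 on dimmer probe sets, while one more, 1460035_at, was lower at -2.91 ± 0.34 (adjusted p = 0.0180). Chchd6, a subunit of the same crista complex as Micos10, stood at 0.67 ± 0.30 and did not pass (adjusted p = 0.232 over genes), but did with the block (adjusted p = 0.0143 over genes).

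Of the 4 measured genes of quality control and clustering, Pink1 passed. Pink1, the kinase that marks damaged mitochondria, had signals of 691.1 and 817.5 in pseudopodia, against 379.4 and 425.7 in cell bodies, and a difference of 0.88 ± 0.20 (adjusted p = 0.0487 over genes). On its other probe set it stood at 0.23 ± 0.25 and did not pass. Cluh, an RNA-binding protein needed for the spread of mitochondria in the cell, Vps13d, a lipid transfer protein, and Msto1, a regulator of mitochondrial fusion, stood at -0.40 ± 0.19, -0.19 ± 0.22 and -0.05 ± 0.20. The dimmer probe sets of Vps13d differed in sign, at 0.15 ± 0.31 and -1.43 ± 0.47, and did not pass.

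**Figure D4:**
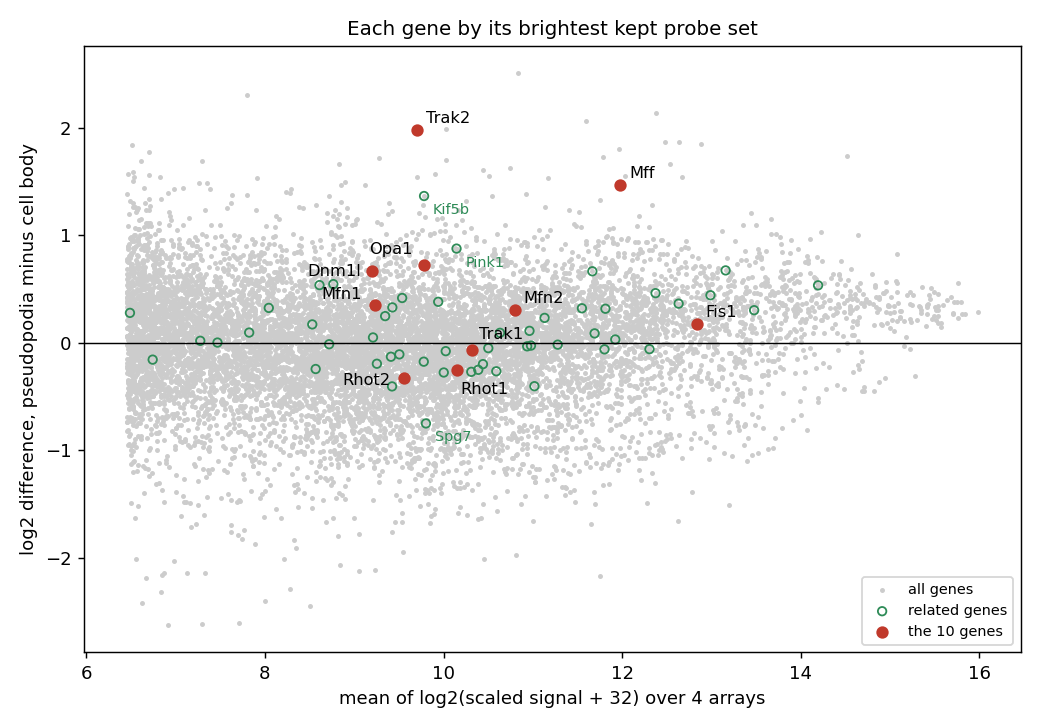
Log2 difference against mean log2 signal for 10962 genes (grey), each by its brightest probe set above the filter, with the 10 genes in red and the 51 related genes as green circles. Trak2 and Mff lie at the upper edge of the cloud, at 1.98 and 1.47, and the other 8 genes lie within it.

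**Figure D5:**
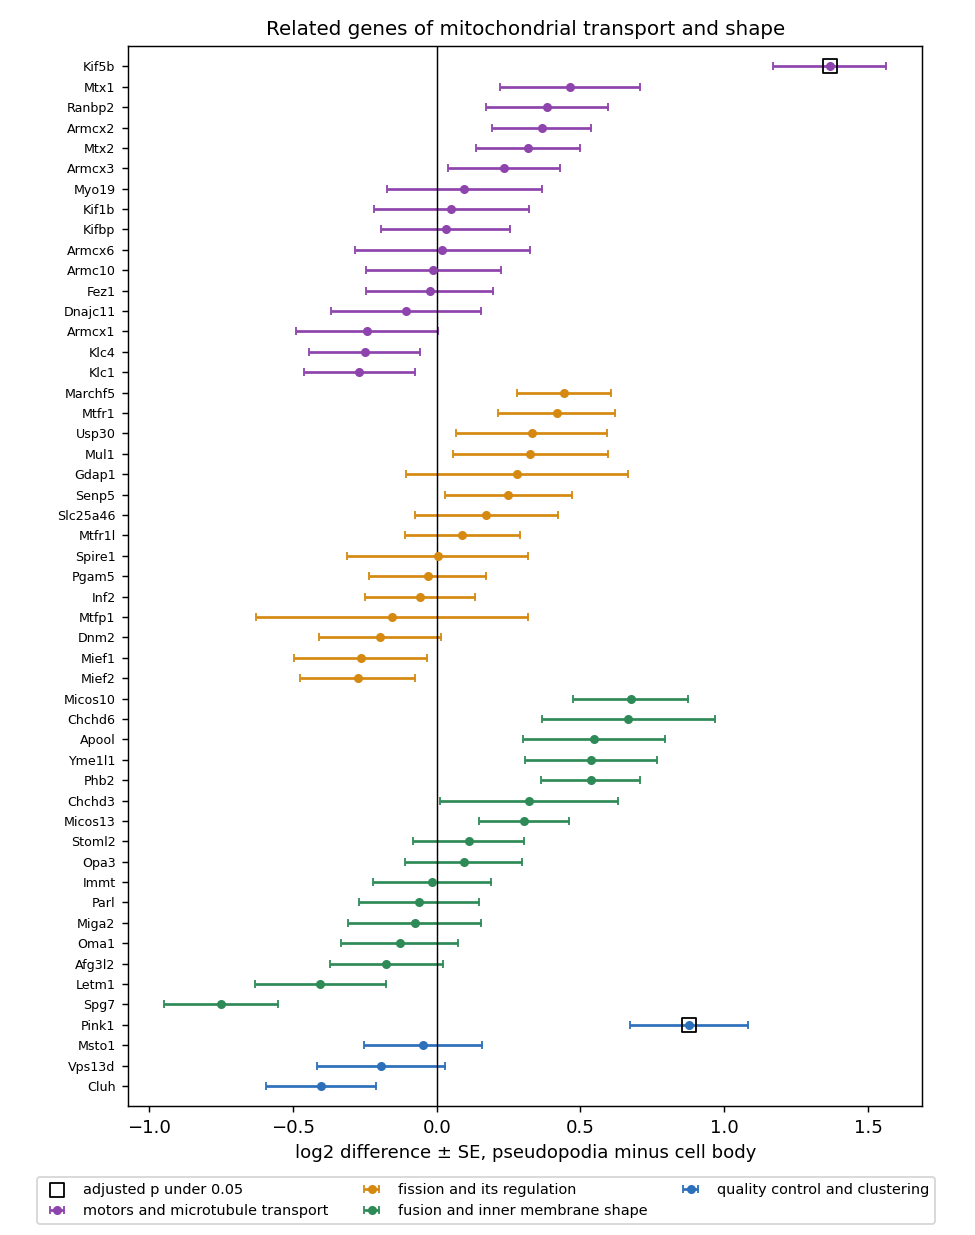
Log2 difference with the SE of the fit for the 51 related genes, ordered by size within 4 groups shown by colour. Only Kif5b (1.37) and Pink1 (0.88), boxed, passed the threshold in the fit shown, and the group medians lie between -0.12 and 0.10.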

How the data were processed

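The deposited value table holds 1 MAS5 intensity per probe set and array, per the submitters' processing notes, on a linear scale and with an equal trimmed mean (2% trimmed at each end) on every array. The version, scaling target and detection calls are not given in the sources used here. The deposited array information files hold settings as text: per the file headers, all arrays shared 1 lot and 1 scanner, and same-numbered arrays shared a scan day and a project code. Because MAS5 corrects each probe with its mismatch partner, low signals vary more, and formaldehyde fixation (0.3%, 10 min, reversed at 70 °C for 45 min) could affect RNA integrity.

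Each array was brought to a trimmed mean of 500, and values were taken as log2(signal + 32), which equals a pseudocount of 16 on the deposited scale; a fold change on this scale understates changes of dim probe sets. Of 45037 probe sets that are not controls, the 22519 with a mean log2 value at or above the median were kept. Genes were named from the platform annotation: 34958 probe sets had 1 symbol, 932 several and 9211 none. The files name no genome build, so no coordinates are given. The test between fractions was that of limma 3.58.1, run in R 4.3.3 (lmFit, eBayes with a variance trend, two-sided, Benjamini-Hochberg over all kept probe sets, or over 10962 genes by the brightest probe set). The procedure was tested on simulated data. These were drawn as independent arrays with the spread of the same fit, so they cannot check whether the real arrays meet those assumptions. The series text calls the samples independent without describing separate cultures, so the p-values cover the spread among these arrays alone, which may be technical.

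The replicate numbers pair the arrays through scan day and project code. Replicate 2 minus replicate 1 differences correlated with r = 0.243 between the fractions, across probe sets. The fit with this number as a block has 1 residual degree of freedom against 16.8 from the prior (2 and 5.56 without), so its p-values rest mostly on a shared spread.

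The members and lists were chosen with earlier results of these data known. All 10 members are named, and of the related genes every gene past the threshold and up to 3 more per group with the largest moderated statistic. Klc1, Klc4, Mief1, Chchd3, Chchd6 and the dimmer probe sets were added after their values were seen.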

Additional observations from a re-analysis of the deposited data

How the results depend on the processing

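The probe sets 1435016_at of Trak2 and 1456736_x_at of Mff kept their direction under all 13 alternatives run on probe sets, and passed under 10 of them. They did not pass without the variance trend (adjusted p = 0.0623 and 0.0702), nor when either cell body array was left out. In all 3 of these fits 0 probe sets were called over the whole array, higher or lower, so member probe sets past the threshold numbered 0, as did member and related genes. Leaving out 1 array at a time leaves a lone array in its fraction, assumed to vary like the other fraction. Such fits gave 0 to 1304 higher and 0 to 2652 lower probe sets over the array, 0 to 3 higher member probe sets, 0 to 3 higher member genes, and 0 to 6 higher and 0 to 1 lower related genes (without pseudopodia replicate 2, Chchd3 passed and Pink1 did not); the third member was Opa1, without pseudopodia replicate 1 (adjusted p = 0.0350). The replicate block gave 1541 higher and 2546 lower probe sets, 4 higher member genes (Dnm1l and Opa1 in addition), and 6 higher and 1 lower related genes, and changed no other call among the members. Scaling on hybridization controls gave 71 higher and 1866 lower probe sets, and fitting without the filter 39 and 137. Unsuffixed probe sets left 1 higher member gene. Related genes past the threshold as higher numbered 1 after median centring, on hybridization controls, with pseudocount 8 and without the filter, and 0 with the mean over probe sets of a gene; 1 was lower on hybridization controls. The median of the member genes was 0.43 after quantile normalization, 0.31 after median centring, -0.0068 on hybridization controls (where that of all genes was -0.30), 0.34 with pseudocount 8, 0.30 with the larger pseudocount, 0.29 with unsuffixed probe sets, 0.26 with the mean over probe sets, and 0.27 to 0.43 without 1 array. Of 256 values of single member probe sets under alternatives, 22 had the other sign, none past the threshold on either side. On hybridization controls these were Fis1 (-0.17 and -0.32), Mff 1451572_a_at (-0.19), Mfn1 1426773_at (-0.020) and Mfn2 (-0.037), and after quantile normalization Opa1 1449214_a_at (0.10) and Trak1 (0.042, 0.037 and 0.093). Without 1 array the ranges were -0.027 to 0.38 and -0.31 to 0.36 for Fis1, -0.11 to 0.41 for Mff 1451572_a_at, -0.22 to 0.12 and -0.21 to 0.089 for Opa1, -0.70 to 0.048 for Rhot2, and -0.25 to 0.11, -0.30 to 0.089 and -0.15 to 0.085 for Trak1. The cause of these changes was not tested. Signal close to the filter limits the values of 1456755_at and 1418768_at.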
